A study of Mus musculus with 5 samples.

Results

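The 39 Hox genes of the mouse were examined for sites called in a chromatin immunoprecipitation and sequencing (ChIP-seq) experiment on KLF5, a Krüppel-like factor that binds DNA through zinc fingers. The genes were taken by symbol (Hoxa, Hoxb, Hoxc or Hoxd followed by a number) from the RefSeq table of GRCm38, and they are 39 of 21887 protein-coding genes on the assembled chromosomes. A peak was assigned to them where its summit, the base of highest signal, lay inside a Hox gene or within 10 kb of one. This gave 80 distinct summits, each counted once, of 45366 in the V5-KLF5 peak list on those chromosomes. The Hox genes lie in 4 clusters: Hoxa (11 genes, chromosome 6, 52155367 to 52260880), Hoxb (10 genes, chromosome 11, 96194316 to 96368254), Hoxc (9 genes, chromosome 15, 102921131 to 103036856) and Hoxd (9 genes, chromosome 2, 74668225 to 74765142), all in mm10.

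The study used embryonic stem (ES) cells, which are undifferentiated cells taken from the early embryo. The tagged cells were described as wild type, came from C57B6/J mice and overexpressed KLF5 with a V5 epitope, and they gave a V5 immunoprecipitate, a normal mouse IgG immunoprecipitate and input DNA. Untagged wild-type ES-D3 cells, an established mouse ES line, gave a V5 immunoprecipitate and input DNA. The promoter that drives the transgene, its level relative to the cell's own KLF5 and the number of clones are not given in the sources used here. With 5 groups of 1 library each there are no replicates, and peak lists carry no expression values by which the cell type could be checked.

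The V5 library of the tagged cells held 28.8 M (mega) tags and kept 23.2 M after duplicates were removed, and the 3 immunoprecipitates had 28.2 to 31.9 M tags. The IgG list held 3 peaks and the V5 list of the untagged cells 0, and none lay in a Hox window. The run name of the untagged list gives another line, JM8.N4, so which line that control represents is uncertain.

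Hox genes encode homeodomain transcription factors that give cells along the head-to-tail axis their positional identity. Within a cluster all genes are transcribed in 1 direction, and they are numbered so that group 1 is expressed nearest the head and earliest, and group 13 nearest the tail and latest. In undifferentiated ES cells the clusters are known for Polycomb-repressed chromatin that also carries an activating histone mark, and the genes open in numerical order on exposure to retinoic acid. Below, the Hox1 side is the end of a cluster with the lowest numbers (Hoxc4 in the Hoxc cluster), and the Hox13 side is the end with the highest.

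RefSeq promoters (mm10, 250 bases before to 50 after a start) were listed for 22 of the 39 genes, as 24 windows. The 22 were 9 genes of Hoxa, 3 of Hoxb, 1 of Hoxc and 9 of Hoxd, so Hoxb and Hoxc are barely covered. A V5-KLF5 summit lay inside 3 of the windows: Hoxa5, Hoxd1 and the internal start of Hoxd11. The 250 bases upstream of the start are printed for Hoxa5 and Hoxd1, which had the highest enrichments of the 3. Hoxa11 is shown because its summit lay 277 bases upstream, just beyond its window, and Hoxa13 because it had the most motif matches of the 24 windows and no peak over it. All are written 5′ to 3′ on the strand of the gene. Capitals mark every match on either strand to CCNCNCCC or to CACCC, textbook forms of the site that KLF and SP zinc fingers read. The motifs can overlap each other and the GC box CCGCCC.
Hoxa5, chr6:52204588-52204837, minus strand: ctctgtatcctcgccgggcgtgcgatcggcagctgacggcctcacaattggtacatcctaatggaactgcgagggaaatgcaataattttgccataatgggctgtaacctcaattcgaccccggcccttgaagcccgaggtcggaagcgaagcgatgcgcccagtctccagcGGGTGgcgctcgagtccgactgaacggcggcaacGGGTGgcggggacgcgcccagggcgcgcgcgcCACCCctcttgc
Hoxd1, chr2:74762730-74762979, plus strand: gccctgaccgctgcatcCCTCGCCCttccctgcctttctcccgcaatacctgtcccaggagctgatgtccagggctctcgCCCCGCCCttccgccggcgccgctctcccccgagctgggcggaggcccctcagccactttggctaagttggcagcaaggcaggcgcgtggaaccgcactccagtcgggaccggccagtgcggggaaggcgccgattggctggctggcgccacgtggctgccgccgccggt
Hoxa11, chr6:52245811-52246060, minus strand: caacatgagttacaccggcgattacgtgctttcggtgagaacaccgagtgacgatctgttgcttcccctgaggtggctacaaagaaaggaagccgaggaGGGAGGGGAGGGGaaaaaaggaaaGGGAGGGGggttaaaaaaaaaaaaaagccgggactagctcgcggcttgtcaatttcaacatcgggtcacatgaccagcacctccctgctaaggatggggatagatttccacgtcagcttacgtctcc
Hoxa13, chr6:52260881-52261130, minus strand: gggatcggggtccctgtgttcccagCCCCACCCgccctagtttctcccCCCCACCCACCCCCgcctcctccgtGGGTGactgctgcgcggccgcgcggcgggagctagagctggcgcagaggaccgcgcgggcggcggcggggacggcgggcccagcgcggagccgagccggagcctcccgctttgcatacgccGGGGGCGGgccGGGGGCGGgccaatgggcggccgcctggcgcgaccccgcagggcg

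The summit at Hoxa5 (52204662) lay 75 bases upstream of the start with a fold enrichment of 6.83, the ratio of (pileup + 1) to (input background + 1) that the authors deposited for each peak. Its pileup, the height of extended tags at the summit, was 27. The stretch printed for Hoxa5 holds 3 CACCC matches and 0 of CCNCNCCC. At Hoxd1 the summit (74762910) lay 70 bases upstream with a fold enrichment of 5.86 and a pileup of 23, and the stretch holds 2 CCNCNCCC matches and 0 of CACCC. At Hoxa11 the summit (52246087) had 4.03, and the stretch holds 3 CCNCNCCC matches. Hoxa13 holds 5 CCNCNCCC and 4 CACCC matches in the stretch, and its nearest peak, at chr6:52261191-52261440, begins beyond the upstream edge of the window, with 3.90. A match is a description of letters and not a binding site.

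Over whole windows of 300 bases, 17 of 24 Hox promoters held CCNCNCCC (70.8%) against 56.6% of 21263 protein-coding promoters, and 16 held CACCC (66.7%) against 59.5%. CCACACCC was in 1 Hox promoter (4.17%, against 3.63%), and CCGCCC in 10 (41.7%, against 46.2%). Median GC content was 57.7% in the Hox promoters and 56.3% in all, and 11 Hox promoters (45.8%) were CpG-rich against 45.1% of all, where CpG-rich means GC of at least 50% and an observed to expected CpG ratio of at least 0.6. In these measures the listed Hox promoters lay near the average promoter of the table.

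Peaks covered the listed Hox promoters, mostly of Hoxa and Hoxd, less often than the table as a whole. A peak overlapped 5 of 24 Hox promoters (20.8%, exact 95% Clopper-Pearson interval 7.13 to 42.2) against 44.5% of all protein-coding promoters. All 5 were CpG-rich, as were 77.5% of all protein-coding promoters overlapped by a peak. Of 11 CpG-rich Hox promoters, 5 were overlapped (45.5%, interval 16.7 to 76.6), where 76.4% of CpG-rich protein-coding promoters were. Of 21 CpG-rich promoters of dispersed homeobox genes, which are scattered over the genome, 11 were overlapped (52.4%, interval 29.8 to 74.3). The windows of a cluster share a neighbourhood and a library, so these intervals cover counting error only and no test was made of the difference.

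Every Hox gene had at least 1 V5-KLF5 summit inside it or within 10 kb, 39 of 39, against 70.5% of all protein-coding genes by the same rule. The windows of neighbouring Hox genes overlap, and 49 of the 80 summits fell in the windows of 2 or more genes. A gene had from 1 to 9 summits with a median of 4, and Hoxa3 and Hoxb3, whose gene models are long and span other Hox genes, had 9 each. The genes with a single summit were Hoxa2, Hoxb4 and Hoxc8. For 17 genes the strongest summit in the window lay nearer to the start of another Hox gene, so a count per gene does not give a target.

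With the window narrowed to 1 kb around the gene, 31 of 39 Hox genes had a summit (79.5%, interval 63.5 to 90.7) against 62.9% of all protein-coding genes. The 8 without were Hoxa2, Hoxa9, Hoxb8, Hoxb13, Hoxc4, Hoxd4, Hoxd9 and Hoxd12, and every cluster has at least 1 of them. Within 5 kb it was 38 of 39 against 67.0%, and within 50 kb all 39 against 81.1%. At a fold enrichment of at least 5 within 10 kb, 27 Hox genes had a summit (69.2%, interval 52.4 to 83.0) against 57.4%. At a −log10 q-value of at least 10, 21 of 39 did, against 54.6% of all protein-coding genes. At a fold enrichment of at least 10, 6 Hox genes had a summit within 10 kb (15.4%, interval 5.86 to 30.5) against 22.2% of all protein-coding genes. The share of Hox genes was thus above that of all genes only where a peak of any strength counted. At fold enrichments of 5 and of 10 the interval held the share of all genes, so no difference is read there. At the q-value limit the share of Hox genes was close to that of all genes. The 6 genes at 10 rest on 3 summits, because neighbouring windows share them. For the same reason the genes are not independent, and these intervals cover counting error only.

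The map of summits along the clusters sets out all 80 by place and strength. Nearly all stand between 3 and 10, and of the 80 the stems above 10 are 1 each in the Hoxa, Hoxb and Hoxc clusters.

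**Figure D1:**
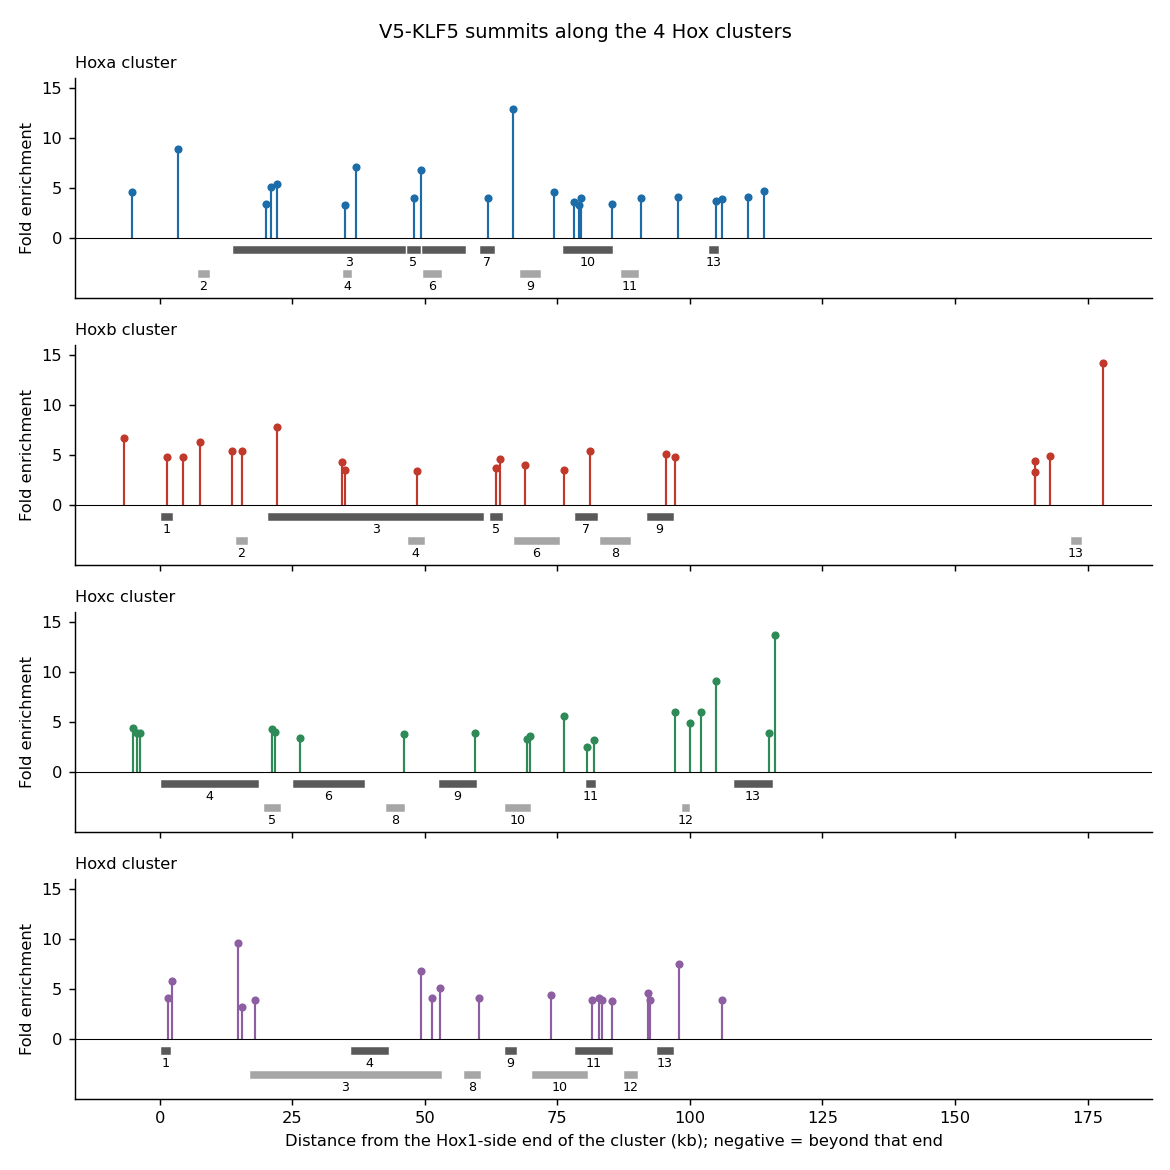
The 80 V5-KLF5 summits inside or within 10 kb of a Hox gene, along the 4 clusters. The x axis is the distance in kb from the Hox1-side end of the cluster and the y axis the fold enrichment over input; each stem is 1 summit and grey bars are genes, labelled by paralog number (1 Hoxa gene is not drawn). Of these, 3 stems reach 10: 14.2 beyond Hoxb13, 13.7 beside Hoxc13 and 12.9 between Hoxa7 and Hoxa9; a summit of 12.2 in the Hoxb cluster, over 10 kb from any Hox gene, is not drawn.

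Hox peaks were many and weak. Their median fold enrichment was 4.15, with quartiles of 3.90 and 5.37 and a range of 2.51 to 14.2, against a median of 5.18 and quartiles of 4.15 and 7.45 for all 45366 peaks. Of the 80, 59 stood at or below the median of the whole list and 21 above it. A fold enrichment of at least 10 was reached by 3 Hox summits (3.75%, interval 0.780 to 10.6) and by 5878 of all peaks (interval 12.6 to 13.3%), and 40.0% of Hox summits lay below 4 against 21.9% of all. Median pileup was 18 at Hox summits and 24 over the list, and median peak length was 350 bp against 427 bp. The median −log10 q-value, the authors' measure of confidence, was 5.81 against 9.57.

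The input background under the Hox peaks, recovered from pileup and fold enrichment, had a median of 3.26 against 3.45 over the list. It stood at the genome-wide minimum of 3.10 for 43.8% of Hox summits (interval 32.7 to 55.3) and 37.9% of all. A single Hox summit, 6724 bp beyond Hoxb1, stood on a background above 6 (8.43), with a pileup of 62 and a fold enrichment of 6.68.

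**Figure D2:**
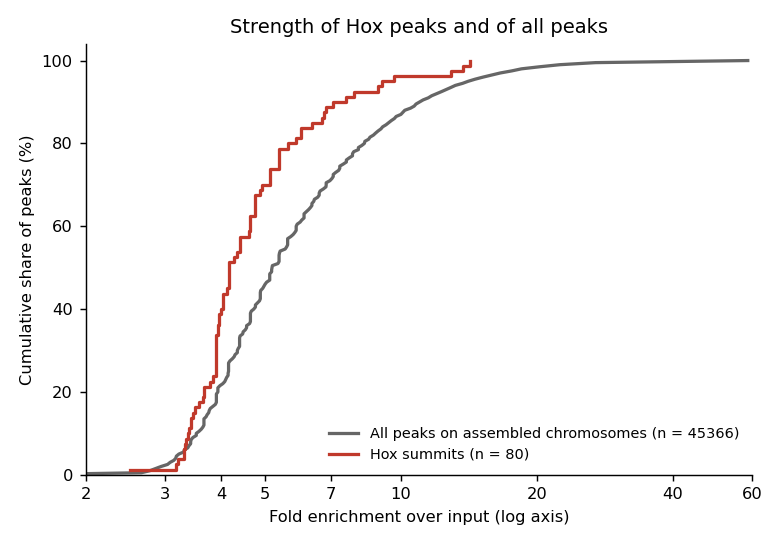
Cumulative share of peaks (y axis, %) by fold enrichment over input (x axis, log scale) for the 80 Hox summits (red) and all 45366 peaks (grey). The Hox curve lies to the left over most of its range, with medians of 4.15 and 5.18, and ends at 14.2 where the full list runs to 58.7.

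Summits were dense within the clusters. From the first to the last gene of each cluster there were 18 summits in Hoxa, 20 in Hoxb, 15 in Hoxc and 16 in Hoxd. That is 171 per Mb in Hoxa (exact Poisson interval 101 to 270), 115 in Hoxb (70.2 to 178), 130 in Hoxc (72.5 to 214) and 165 in Hoxd (94.4 to 268), and the 4 intervals overlap. The 69 summits of the 4 spans, 1 of which lay more than 10 kb from any Hox gene, came to 140 per Mb (interval 109 to 177), 7.59 times the autosomal median of 18.5. Their own chromosomes had 15.2 to 29.3 per Mb.

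Gene-rich stretches of the autosomes, from which the Hox clusters were not removed, also held many summits. The least dense cluster, Hoxb, had 11.5 summits per 100 kb, and at least 11 were held by 2.30% of 24611 autosomal tiles of 100 kb. Among the 178 tiles with at least 8 protein-coding genes, 38.2% held at least 11, with a median of 9. Median fold enrichment was 5.19 over the 1618 summits of the gene-rich tiles, with 13.3% at 10 or more, where the Hox summits had 4.15 and 3.75%. In tiles with at least 11 summits of any kind the median was 5.35.

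Beside the clusters the density fell off unevenly. In the 100 kb beyond the Hox13 side there were 12 summits at Hoxa, 9 at Hoxb, 1 at Hoxc and 6 at Hoxd, and beyond the Hox1 side 8, 1, 4 and 2. The 43 flanking summits came to 53.8 per Mb (interval 38.9 to 72.4), which lay below the pooled interval inside the clusters. Taken singly, both Hoxa flanks and the Hox13-side flanks of Hoxb and Hoxd had intervals that overlapped that of their cluster. So did the Hox1-side flank of Hoxc, and the remaining flanks did not. These intervals cover counting error only. The flanks held the strongest peak of the region, at Evx1, described below.

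**Figure D3:**
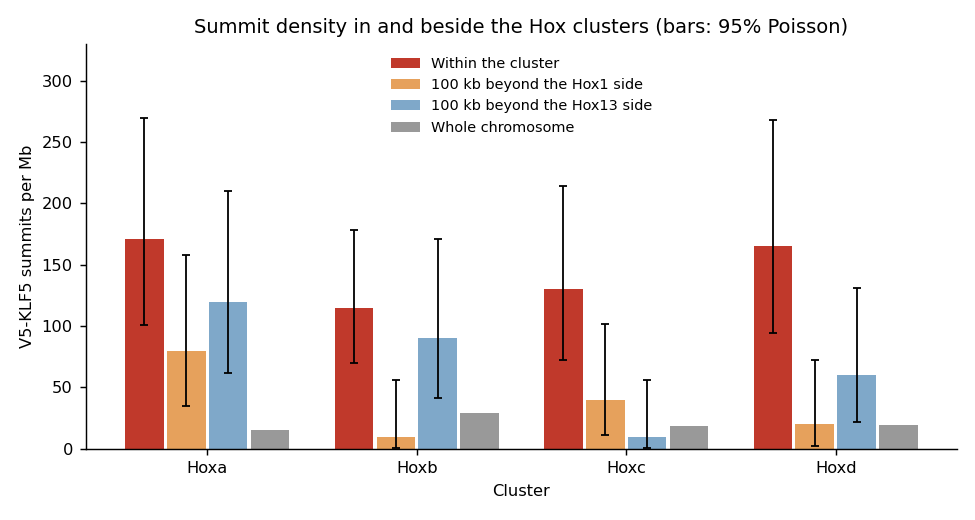
V5-KLF5 summits per Mb (y axis) within each cluster, in 100 kb beyond either side, and over the whole chromosome; error bars are exact 95% Poisson intervals. Each cluster, at 115 to 171 per Mb, stands above its chromosome at 15.2 to 29.3, and the flanks of Hoxa and Hoxd, the Hox13-side flank of Hoxb and the Hox1-side flank of Hoxc lie between, that of Hoxd on the Hox1 side (20.0) close to its chromosome (19.3).

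Summits were also sorted by place. Of the 80, 46 lay inside a Hox gene (57.5%), 22 between Hox genes (27.5%), 7 beyond the Hox13 side and 5 beyond the Hox1 side. Median fold enrichment was 3.98 inside genes, 4.82 between genes, 4.74 beyond the Hox13 side and 4.39 beyond the Hox1 side. No summit inside a gene passed 8.90, and the 5 strongest of the 80 all lay outside gene bodies. In the Hoxc cluster the 10 summits inside genes (2.51 to 4.34) did not overlap the 5 between genes (4.93 to 9.10). In the other clusters the ranges overlapped. No test was made, since the summits share 1 library.

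**Figure D4:**
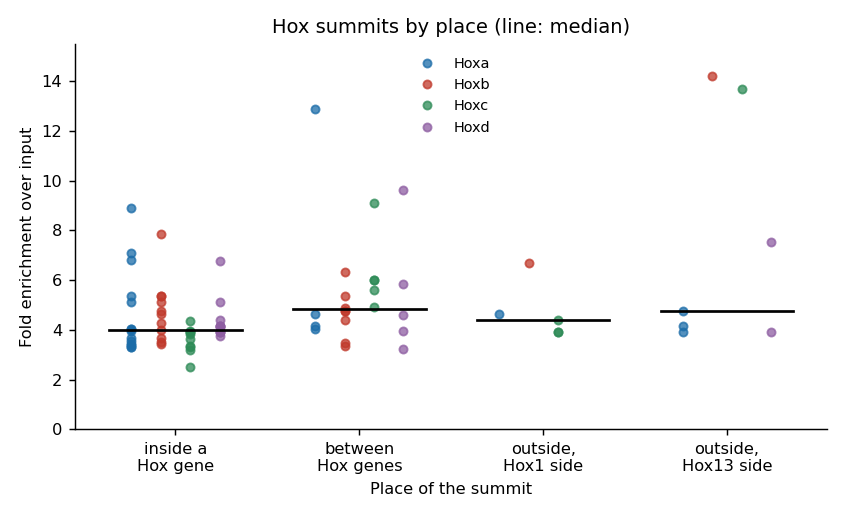
Fold enrichment over input (y axis) of each Hox summit by its place (x axis), coloured by cluster, with the median as a line. Summits inside genes reach 8.90 at most, and the 3 above 10 lie between genes or beyond the Hox13 side.

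The strongest Hox summit belonged to Hoxb13, a gene of the tail end of the axis and the prostate that lies apart from the rest of its cluster. The peak at chr11:96190039-96190697 had its summit 3962 bp upstream of the start, a pileup of 81 and a fold enrichment of 14.2, ranked 2212 of the deposited list. Hoxb13 had no summit in its body or within 1 kb, and the other 3 summits in its window lay 3726 to 6826 bp beyond its 3′ end with 3.34 to 4.88. From there to the neighbourhood of Hoxb9 the cluster held its longest stretch without a summit, 47.7 kb, ending at a peak 20151 bp from Hoxb9 (chr11:96250760-96251916). That peak lay outside every Hox window, 481 bp from the lncRNA gene Gm53, and had a fold enrichment of 12.2.

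Other genes of group 13 also had their strongest summit upstream, on the outer side of the cluster. Hoxc13, which acts in hair and nail, had a summit 306 bp upstream of its start (chr15:102920598-102921045) with a fold enrichment of 13.7 and a pileup of 55, the strongest within 1 kb of any Hox start. Hoxd13, a gene of digits and genital structures, had one 951 bp upstream (chr2:74667137-74667904) with 7.55. Hoxa13, which acts in the same structures, differed in strength: its 5 summits ran from 3.66 to 4.74, and the strongest lay 8292 bp beyond the gene, past the lncRNA gene Hottip. The outermost Hoxd13 summit, 9414 bp from the gene with 3.93, was the last inside the 10 kb limit, and the first outside lay 10230 bp away with 3.90.

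Between the ends, the strongest summit stood in the stretch between Hoxa7 and Hoxa9, 2 genes of the trunk. The peak at chr6:52221667-52222426 had a pileup of 59 and a fold enrichment of 12.9, with its summit 1116 bp from the body of Hoxa9 and 3408 bp upstream of the start of Hoxa7. It was the strongest summit in the windows of Hoxa3, Hoxa7, Hoxa9 and Hoxa10. With Hoxb13 and Hoxc13, these were the 6 genes that had a summit of at least 10. In the Hoxc cluster a run of 4 summits flanked Hoxc12, at 6.01 beyond its 3′ end and at 4.93, 6.01 and 9.10 between it and Hoxc13, the last at chr15:102931658-102932488.

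At the Hox1 side of the Hoxb and Hoxd clusters, some of the 10 strongest Hox summits lay within or between the genes that pattern the hindbrain and neck. Hoxb2 and the long model of Hoxb3 shared a summit 5449 bp upstream of the Hoxb2 start with a fold enrichment of 7.86. Between Hoxd1 and Hoxd3 a peak at chr2:74749872-74750649, the strongest of the Hoxd cluster, had 9.63 and lay 12557 bp upstream of Hoxd1 and 2152 bp beyond Hoxd3. Hoxb1 had weaker summits 1188 bp downstream and 1955 bp upstream of its start, both with 4.76, and 1 at 5096 bp upstream with 6.34.

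Summits were more frequent near start sites than the length of those stretches gives. The direction of each cluster was read from the listed promoters, and 45 starts were used for the 39 genes. Of the 80 summits, 29 lay within 1 kb of a start (36.2%, interval 25.8 to 47.8), where the same distance covered 17.0% of the 517 kb of Hox windows. Within 500 bp there were 17 (21.2%, interval 12.9 to 31.8) in 8.52% of the length. The 29 were divided evenly, 14 upstream and 15 downstream. They were no stronger than the rest, with a median fold enrichment of 4.03 against 4.40 farther away.

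A summit lay within 1 kb of a start in 20 of 39 Hox genes (51.3%, interval 34.8 to 67.6). Among genes in the promoter table, which allows the same measure in others, it was 10 of 22 Hox genes (45.5%, interval 24.4 to 67.8) against 51.7% of 17492 protein-coding genes. The share of the listed Hox genes, mostly of Hoxa and Hoxd, was therefore close to the background. The 20 genes are set out by paralog number in the grid of strongest summits at starts.

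**Figure D5:**
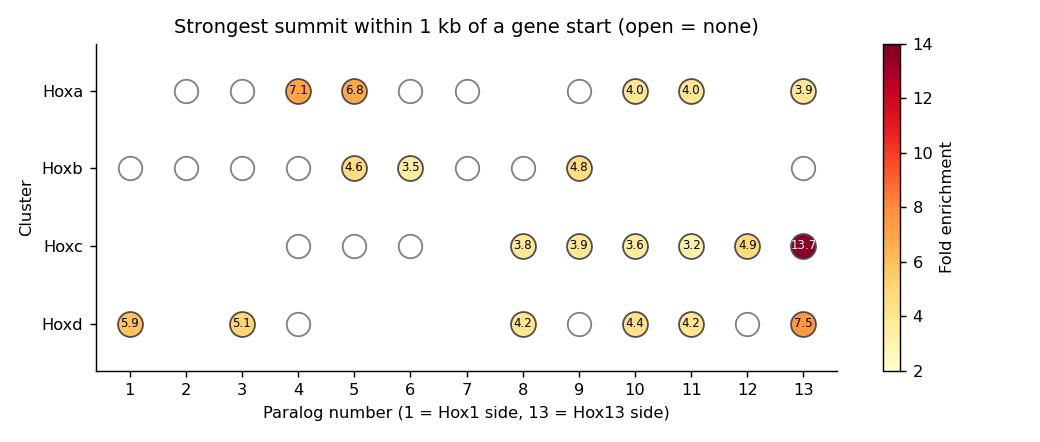
Fold enrichment of the strongest summit within 1 kb of a start for 38 of the 39 Hox genes, by paralog number (x axis) and cluster (y axis); open circles are genes without one, and 1 gene without one is not drawn. Filled circles number 12 of 16 among groups 9 to 13 and 3 of 12 among groups 1 to 4, and Hoxc13 at 13.7 is the highest.

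Of the anterior genes (groups 1 to 4) 3 of 12 had such a summit: Hoxa4 at 7.08, 666 bp upstream, Hoxd1 at 5.86 and Hoxd3, which acts in the first neck vertebrae, at 5.12. Of the central genes (groups 5 to 8) 5 of 11 had one. Hoxa5, needed in lung and the lower neck, had 6.83, Hoxb5 had 4.64, Hoxd8 had 4.15, Hoxc8 had 3.83 and Hoxb6 had 3.46. Of the posterior genes (groups 9 to 13) 12 of 16 had one. Besides Hoxc13 and Hoxd13, these were Hoxc12 at 4.93, Hoxb9 at 4.76, Hoxd10 at 4.39, Hoxd11 at 4.15, Hoxa10 at 4.04, Hoxa11 at 4.03, Hoxc9 at 3.90, Hoxa13 at 3.90, Hoxc10 at 3.65 and Hoxc11 at 3.17. Hoxa10 and Hoxa11 act in the uterus and limb, and Hoxc9 and Hoxc10 in the spinal motor columns that serve the trunk and hind limb.

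The rise from anterior to posterior genes depended on the distance chosen. In 7 of the other 19 genes the nearest summit lay between 1 and 1.5 kb from the start, among them Hoxb1, Hoxb2, Hoxb4, Hoxa7, Hoxb7 and Hoxc5. With 1.5 kb as the limit, a choice made after these values were seen, 7 of 12 anterior, 8 of 11 central and 12 of 16 posterior genes had a summit. Total summits by nearest start came to 28 for anterior, 14 for central and 38 for posterior genes, or 2.33, 1.27 and 2.38 per gene. Their median fold enrichments were 4.76, 4.01 and 4.10. By this rule the central genes held fewer summits per gene. Only the end groups could take the summits outside the clusters, 5 beyond the Hox1 side and 7 beyond the Hox13 side. The length of DNA nearest to each group was not taken into account, and a difference between groups was not tested.

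The clusters differed in how these were spread. Hoxa had 7 anterior, 4 central and 11 posterior summits, Hoxb 10, 5 and 6, Hoxc 3, 4 and 12, and Hoxd 8, 1 and 9. In Hoxd the only central summit, at Hoxd8 with 4.15, stood between a group at Hoxd10 to Hoxd13 and a group at Hoxd3, and a stretch of 31.2 kb across the body of Hoxd3, which also holds Hoxd4 and Mir10b, had none. Hoxa had a stretch of 16.6 kb without a summit over Hoxa2 into Hoxa3, and Hoxc one of 21.2 kb over Hoxc4 to the end of the cluster. The median spacing between neighbouring summits was 5.41 kb in Hoxa, 4.95 in Hoxb, 4.56 in Hoxc and 2.22 in Hoxd.

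Genes inside or beside the clusters held the strongest peak of the region. Of 12 such genes and RNAs, 11 had a summit within 10 kb, and Mir10b had its nearest 10115 bp away. Evx1, an even-skipped homeobox gene beyond Hoxa13, had 6 summits, of which the strongest lay inside the gene at chr6:52313977-52315457 with a fold enrichment of 36.4 and a pileup of 154. Evx2, its counterpart beyond Hoxd13, had 4, and its strongest was the Hoxd13 peak at 7.55. The lncRNA genes Hotair and Hottip had 6.01 and 4.74 in their windows, at summits that are also Hox summits. Halr1, a lncRNA gene beyond the Hox1 side of the Hoxa cluster, had 4 with at most 4.71, outside the Hox windows.

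Of the 6 miRNA genes in the clusters, Mir196b and Mir615 had a summit within 1 kb. Their mature sequences are shown, with miR-196a beside miR-196b because both bear on Hox messages and share a seed, the bases 2 to 8 in capitals by which a miRNA pairs with its targets.
mmu-miR-196b-5p: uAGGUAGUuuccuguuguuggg
mmu-miR-196a-5p: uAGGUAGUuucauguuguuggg
mmu-miR-615-3p: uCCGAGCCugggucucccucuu

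The summit nearest Mir196b, between Hoxa9 and Hoxa10, lay 367 bp from it with a fold enrichment of 4.63. Mir615, inside Hoxc5, had summits 156 and 616 bp away with 3.96 and 4.34. The 2 genes for miR-196a, Mir196a-1 in Hoxb and Mir196a-2 in Hoxc, had their nearest summits 5825 and 3933 bp away with 4.76 and 3.90. The 3 genes with this seed thus differed in the distance to a summit.

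Genes that work with or upstream of Hox proteins were counted by the same rule. The ParaHox genes, the sister family of the clusters, had a summit in 6 of 6, led by Cdx4 at 24.7 (9419 bp away), Cdx1 at 10.4, Gsx2 at 8.95 and Gsx1 at 7.08. The TALE cofactors, homeodomain partners of Hox proteins on DNA, had one in 9 of 9, with Pknox2 at 18.1, Pbx3 at 12.4 and Pbx4 at 8.69 among the strongest. Retinoic acid genes and other upstream regulators had one in 12 of 12, led by the receptor gene Rarg at 24.4, Wnt3a at 21.2, the receptor gene Rara at 11.5 and Aldh1a2, which encodes an enzyme of retinoic acid synthesis, at 10.5. Polycomb and Trithorax genes, whose products keep Hox genes silent or active, had one in 12 of 12, led by Kmt2a at 58.7, Eed at 19.0, Jarid2 at 17.0 and Ezh2 at 12.7. All protein-coding genes stood at 70.5%.

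Dispersed homeobox genes were counted in the same way. Of 30, 29 had a summit within 10 kb, all but Irx1, led by Gbx2 at 19.0, Msx2 at 13.04, Tlx3 at 11.3 and Irx2 at 10.7. Their 98 distinct summits had a median fold enrichment of 4.66, and 5.10% reached 10, against 4.15 and 3.75% at the 80 Hox summits. In the other lists the median was 4.00 for the genes and RNAs inside or beside the clusters, which share summits with the Hox genes, 4.88 for ParaHox genes, 4.98 for Polycomb and Trithorax genes, 5.12 for retinoic acid and upstream regulators and 5.18 for TALE cofactors. The median of the strongest summit per gene was 6.68 for Hox genes, 5.12 for the genes and RNAs inside or beside the clusters, 6.62 for TALE cofactors, 6.96 for dispersed homeobox genes, 7.25 for retinoic acid and upstream regulators, 8.01 for ParaHox genes, 9.01 for Polycomb and Trithorax genes and 7.71 for all protein-coding genes with a summit. These differences were not tested, and the lists differ in gene length.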

How the data were processed

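V5 ChIP-seq peaks of V5-KLF5 ES cells were used, with IgG and untagged V5 lists as controls. Per the file headers, the authors called peaks with MACS2 2.1.0.20140616 on single libraries against the input of the same cells, with tags of 51 bp extended to 250 bp, 1 tag per position, the larger dataset scaled to the smaller and a q-value cutoff of 0.05. The submitters' processing notes name mm10 and Bowtie 0.12.8. The authors deposited for each peak a pileup signal, a fold enrichment (a ratio over input), a −log10 q-value and a −log10 p-value. These served to describe, rank or filter peaks within the list.

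Summits were joined to RefSeq genes of GRCm38.p6, the assembly mm10 names, and coordinates are 1-based. The gene table has no strand, so the direction of a cluster came from its RefSeq promoters. It was given to the genes without a listed promoter. Listed promoters were all of 1 strand within Hoxa, Hoxb and Hoxd. In Hoxc only Hoxc4 is listed, so the other Hoxc starts, that of Hoxc13 among them, rest on 1 entry. A start is the 5′ end of the gene model or a listed promoter's start. Promoters were not listed for 17 Hox genes. No genome was used, so no sequence is given for other peaks. Counts of summits per gene window were checked on simulated data, and counts by place or by distance to a start were not. Shares have Clopper-Pearson and densities Poisson intervals at 95%, which cover counting error only (scipy 1.17.1, pandas 2.3.3). PCR reads without molecular identifiers are not independent molecules.

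With 1 library per group no test was made. The members and gene lists were chosen with earlier results of these data known. Values were given for the genes nearest the 10 strongest Hox summits, the strongest of each cluster, every Hox gene with a summit within 1 kb of a start, and up to 4 leading genes of each other list. Results for 1 Hox gene and 1 cofactor gene are not reported here, though both stay in the counts. Alternatives varied the window, threshold, summit rule and gene assignment.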

Additional observations from a re-analysis of the deposited data

How the results depend on the processing

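The count of 39 Hox genes with a summit depended on the strength asked of a peak, with 6 left when fold enrichment had to reach 10 and 21 when −log10 q had to reach 10. The 80 distinct summits became 24 with fold enrichment from 5 upward, 3 from 10 upward and 17 at that q. Their median fold enrichment was then 6.51, 13.7 and 7.08 (median pileup 18.0 over all 80). Density in the clusters fell from 140 per Mb to 42.7, 4.06 and 28.4, and its ratio to the autosomal median from 7.59 to 4.33, 1.73 and 3.27. At 10 that density rests on 2 summits. Within 1 kb the strongest summit was 13.7, at Hoxc13. In the other 26 of 39 comparisons with an alternative, counts and densities moved by at most 1.5 times. Medians stayed within the interval of the main value, and the strongest summit was unchanged. Some of these could not have moved: a filter on fold enrichment keeps the strongest summit, and a wider window keeps all 39 genes. Pileup in place of fold enrichment, counted as moved, is a change of unit. The span from Hoxb9 to Hoxb1 and the 1.5 kb limit were chosen after seeing the data. No paired analysis was possible because each group is 1 library, and none could be left out.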
